A study of Arabidopsis thaliana with 6 samples.

Results

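Of the 9 group IX ethylene response factor genes described here, 6 were expressed above the minimum level used for testing, a mean of 0.5 FPKM, and each of these 6 was lower in the mutant cnd1-3 than in the wild type Col-0. The members are ERF1, ERF1A, ERF2, ERF5, ERF6, ERF13, ERF104, ERF105 and ORA59, 9 of the 32948 genes of the table, taken by their locus identifiers. They were picked because earlier results of these libraries showed lower levels of such factors in the mutant. The difference between the genotypes is therefore given for them as a description, with no test of the group. Their calls in the fit over all genes are not read as support. In bulk RNA, fewer cells that express a gene and less of its RNA per cell cannot be told apart.

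The series is RNA-seq of material labelled as seedling of the thale cress Arabidopsis thaliana, with 3 libraries of cnd1-3, the mutant line, and 3 of Col-0, the wild type accession. The series title links the gene CND1 with genome stability in nucleus and chloroplast, and the comparison asks how transcript levels differ between the genotypes. The labels name neither plant age, growth conditions, treatment and harvest nor the kind of mutation in cnd1-3. They do not say that a genotype's libraries are from separate plants. Every SD below therefore measures the spread between these libraries, which may be technical. Every SE comes from limma, a linear model fit that also draws on the spread of all tested genes. Levels are FPKM, the reads on a gene scaled to the length of its exons and to the library's total over genes, a total of 22125814 to 30455907 reads per library. The 3 leaf markers summed to 31700 to 34800 FPKM over the libraries. The 4 root markers summed to at most 0.0192, with 2 of them at 0 throughout, and the 3 seed markers were at 0. Defining root markers were thus absent or nearly so from tissue labelled as seedling. The 3 flower markers summed to 0.125 to 0.283 FPKM in cnd1-3 and 0.201 to 0.237 in Col-0.

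Ethylene is a gaseous plant hormone made by ACC synthases and ACC oxidases. Its binding to receptors in the endoplasmic reticulum releases the membrane protein EIN2 from the kinase CTR1, and EIN2 then lets the transcription factors EIN3 and EIL1 accumulate. These switch on genes for ethylene response factors (ERFs), plant transcription factors with an AP2 DNA-binding domain. Group IX of that family holds the classical activators, which bind the GCC box of defence gene promoters and which also respond quickly to wounding, pathogens, jasmonate and osmotic stress. Some of its proteins, ERF104 and ERF6 among them, are phosphorylated by the MAP kinases MPK3 or MPK6. The group has 17 genes in Arabidopsis, in the subgroups IXa (ERF1A, ERF2 and ERF13), IXb (6 genes, of which ERF5, ERF6, ERF104 and ERF105 are described here) and IXc (8 genes, with ERF1 and ORA59).

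The 6 tested members lie on chromosomes 2, 4 and 5 and each has 1 exon. ERF6 and ERF1A are next to each other on chromosome 4, transcribed away from each other with 5041 bases between them, and ERF2 and ERF5 have the same layout on chromosome 5, with 6924 bases and 2 annotated genes between them. In each pair 1 gene is of subgroup IXa and 1 of IXb, and the closest relative lies in the other pair. The coding sequences of ERF5 and ERF6 were identical at 69.3% of aligned bases and those of ERF1A and ERF2 at 64.7%, beside a median of 44.5% and a range of 27.9% to 75.4% over the 136 pairs of the 17 group IX genes. The 250 bases upstream of the annotated starts of these 4 genes are printed below because the pairs differ in how much upstream sequence their relatives share. They come from the RefSeq annotation and genome of the TAIR10.1 build, 5′ to 3′ on the gene's strand, and capitals mark the motif matches described with them.
ERF1A: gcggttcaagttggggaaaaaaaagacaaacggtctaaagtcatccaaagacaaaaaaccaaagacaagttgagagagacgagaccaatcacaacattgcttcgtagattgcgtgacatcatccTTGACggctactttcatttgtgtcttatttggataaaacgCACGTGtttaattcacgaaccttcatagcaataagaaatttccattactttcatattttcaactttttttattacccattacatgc
ERF2: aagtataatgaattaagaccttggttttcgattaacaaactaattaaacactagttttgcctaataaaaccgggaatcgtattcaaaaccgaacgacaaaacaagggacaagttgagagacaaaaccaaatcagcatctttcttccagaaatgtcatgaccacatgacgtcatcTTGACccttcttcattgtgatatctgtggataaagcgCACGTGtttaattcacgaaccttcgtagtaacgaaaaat
ERF5: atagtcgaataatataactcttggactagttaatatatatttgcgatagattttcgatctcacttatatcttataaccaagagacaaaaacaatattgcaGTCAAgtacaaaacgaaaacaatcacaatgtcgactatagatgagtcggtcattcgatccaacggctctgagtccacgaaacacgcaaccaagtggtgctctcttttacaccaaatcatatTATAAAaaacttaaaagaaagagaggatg
ERF6: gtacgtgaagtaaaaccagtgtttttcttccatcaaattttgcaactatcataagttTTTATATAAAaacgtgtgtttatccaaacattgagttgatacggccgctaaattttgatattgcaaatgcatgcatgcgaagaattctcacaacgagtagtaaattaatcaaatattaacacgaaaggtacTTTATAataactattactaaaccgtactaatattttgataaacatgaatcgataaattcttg

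These windows are chr4:9758953-9759202 on the plus strand for ERF1A, chr5:19172957-19173206 on the minus strand for ERF2, chr5:19179631-19179880 on the plus strand for ERF5 and chr4:9754162-9754411 on the minus strand for ERF6. ERF1A and ERF2 share an unbroken run of 26 bases, cgCACGTGtttaattcacgaaccttc, at 88 to 63 bases before the start of ERF1A and 41 to 16 bases before that of ERF2. Among the other pairs of member promoters, of 36 in all, the longest shared run was 13 bases, an A-rich stretch in ERF1A and ERF13, and ERF5 and ERF6 shared at most 8 bases. The shared run holds the G box, CACGTG, and both genes also have a W box core, TTGAC, upstream of it. The motifs searched on both strands were the GCC box GCCGCC, the W box core TTGAC, the G box CACGTG, the rapid stress response element CGCGTT and the TATA box core TATAAA. Matches could overlap, as those of TATAAA do in ERF6, and CACGTG reads the same on both strands.

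Of the 6 tested members, 4 had the W box core, 2 the G box, 3 the TATA box core, and 0 the GCC box or the rapid stress response element. The shares among 27443 promoters of protein-coding nuclear genes were 44.9%, 6.49%, 47.3%, 1.87% and 2.59% in that order. The GCC box, the motif that group IX proteins bind, occurred among the 9 members in ORA59 alone, 230 to 225 bases before its start. ERF104 and ERF1 had no match to any of the 5 motifs in this window.

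**Figure D1:**
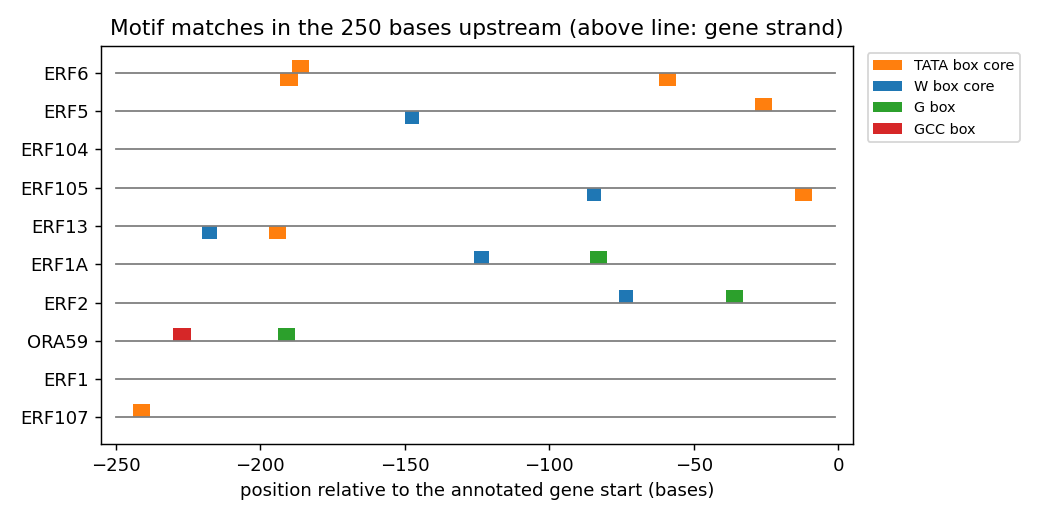
Matches to the searched motifs in the 250 bases upstream of the 9 members and of ERF107, with the position relative to the annotated gene start in bases on the horizontal axis, bars above a line for the gene's strand and below it for the other. ERF1A and ERF2 both show a W box core followed by a G box, ERF104 and ERF1 show no match, and the rapid stress response element occurs in none of these windows.

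The largest differences among the tested members, those of ERF6 and ERF5, were in subgroup IXb. ERF6 (AT4G17490, chr4:9752824-9754161), which restrains leaf growth under osmotic stress and acts in defence, was at 11.3, 23.3 and 16.3 FPKM in Col-0 replicates 1, 2 and 3 and at 2.45, 1.32 and 2.17 in cnd1-3. Every mutant library lay below every wild-type library, with means of 1.98 ± 0.588 and 17.0 ± 6.04 FPKM (SD, n = 3), an 8.58-fold ratio of wild type to mutant. ERF5 (AT5G47230, chr5:19179881-19181182), its closest relative among the tested members and a partner in the growth and immune responses, was at 7.34, 13.0 and 12.3 FPKM in Col-0 and at 2.27, 0.972 and 1.7 in cnd1-3. The genotypes again did not overlap, with a 6.61-fold ratio of the means. ERF104 (AT5G61600, chr5:24766344-24767732), a substrate of MPK6 in the response to bacterial flagellin, had the highest mean of the members in both genotypes, at 18.2, 32.6 and 26.0 FPKM in Col-0 and 12.4, 3.87 and 6.21 in cnd1-3. The ratio of its means was 3.41, and cnd1-3 replicate 1 stood 3.21-fold above cnd1-3 replicate 2.

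Subgroup IXa was lower to differing degrees. ERF13 (AT2G44840, chr2:18495215-18496327), linked to abscisic acid responses by overexpression studies, was at 2.92, 8.84 and 8.22 FPKM in Col-0 and at 1.93, 0.853 and 0.779 in cnd1-3. The ratio of its means was 5.61, but Col-0 replicate 1 lay much closer to cnd1-3 replicate 1 than to the other wild-type libraries. ERF1A (AT4G17500, chr4:9759203-9760391), an activator of GCC box genes, was at 12.0, 17.9 and 14.9 FPKM in Col-0 and 7.54, 3.27 and 4.92 in cnd1-3, with a ratio of 2.85. ERF2 (AT5G47220, chr5:19171643-19172956), an activator of defence and jasmonate-responsive genes, was at 6.1, 7.75 and 8.76 FPKM in Col-0 and at 5.53, 2.27 and 3.82 in cnd1-3. Its ratio of 1.95 was the smallest of the 6, and only a narrow gap separated Col-0 replicate 1 from cnd1-3 replicate 1.

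**Figure D2:**
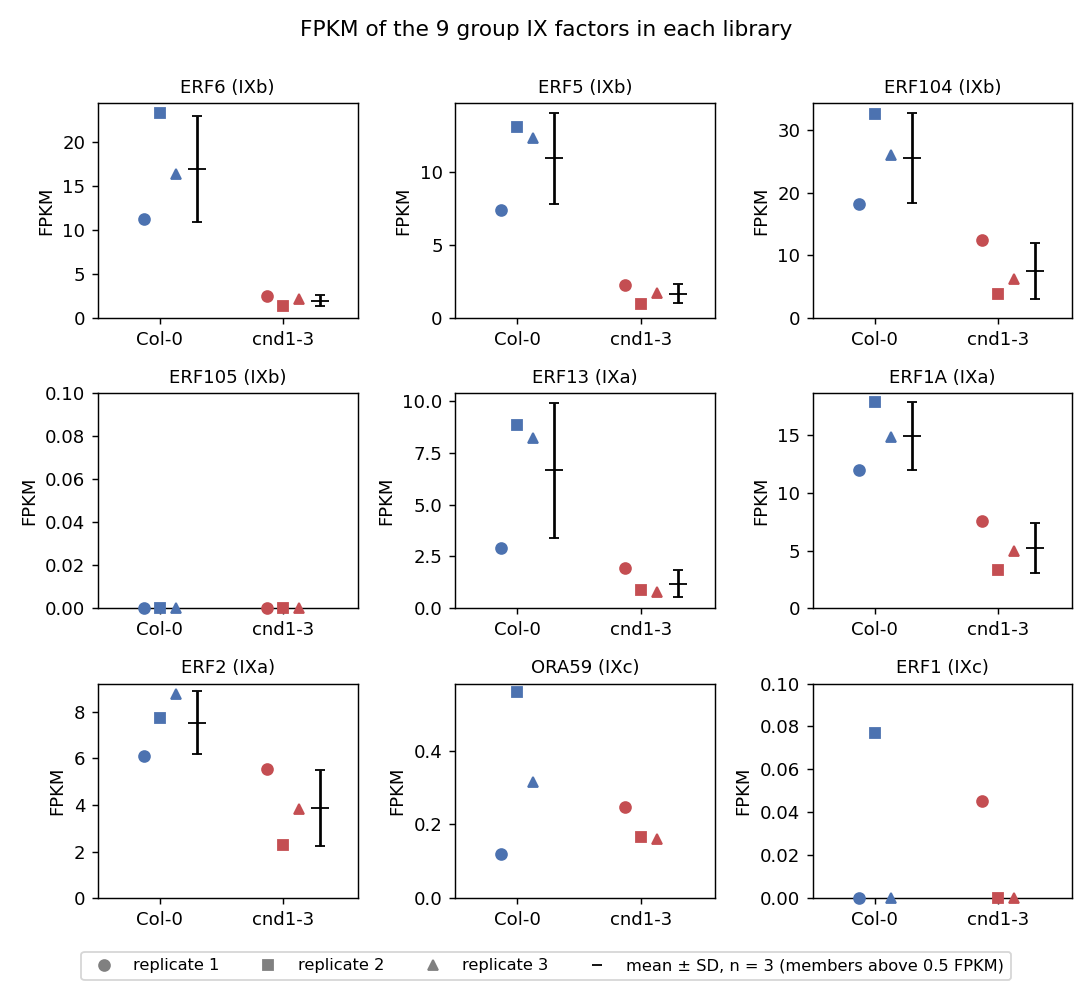
FPKM of the 9 members in each library, with Col-0 in blue, cnd1-3 in red, marker shapes for the replicates and the mean ± SD over 3 libraries for the 6 tested members. In these 6 every cnd1-3 library lies below every Col-0 library, with the widest separation for ERF6 and the narrowest for ERF2, while ORA59 and ERF1 overlap and ERF105 is at 0.

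On the log2 scale of FPKM plus 0.5, the differences of cnd1-3 minus Col-0 were -2.79 (SE 0.26) for ERF6, -2.41 (SE 0.26) for ERF5, -2.02 (SE 0.39) for ERF13, -1.81 (SE 0.35) for ERF104, -1.48 (SE 0.25) for ERF1A and -0.93 (SE 0.25) for ERF2. Their median was -1.91, beside -0.05 over the 17096 tested genes, those with a mean of at least 0.5 FPKM. All 6 had means above that minimum in each genotype. The SEs use limma's variance, which is drawn toward that of all tested genes. For these more variable genes they are smaller than the members' own spread would give. In limma's fit over all tested genes, with Benjamini-Hochberg adjustment at 0.05, 6 of the 6 fell among the genes lower in cnd1-3, as did 7.59% of all tested genes, and the genotypes did not overlap with the mutant lower in 6 of 6, beside 21.5% of all tested genes. Since the members were chosen on this contrast, these counts describe the choice. ERF2 passed in 5 of 15 alternative fits, and without Col-0 replicate 2 only 3 of the 6 passed, with ERF2, ERF13 and ERF104 above the threshold.

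The order of abundance changed with the genotype. In Col-0 the means ran from ERF104 at 25.6 ± 7.18 FPKM through ERF6 at 17.0 ± 6.04, ERF1A at 14.9 ± 2.94, ERF5 at 10.9 ± 3.1 and ERF2 at 7.54 ± 1.34 to ERF13 at 6.66 ± 3.25. In cnd1-3 they ran from ERF104 at 7.5 ± 4.42 through ERF1A at 5.24 ± 2.15, ERF2 at 3.87 ± 1.63, ERF6 at 1.98 ± 0.588 and ERF5 at 1.65 ± 0.652 to ERF13 at 1.19 ± 0.647. Over the libraries of a genotype the values of neighbours in either order overlapped, but within a library most kept their order: 5 of 5 neighbouring pairs in all 3 cnd1-3 libraries, and 3 of 5 in all 3 Col-0 libraries, the exceptions being ERF6 with ERF1A and ERF2 with ERF13. Across each divergent gene pair the ratio of FPKM within a library separated the genotypes. ERF6 over ERF1A was 0.938, 1.3 and 1.1 in the Col-0 replicates and 0.324, 0.403 and 0.441 in those of cnd1-3, so ERF6 was the less abundant of the pair in every mutant library. ERF2 over ERF5 was 0.831, 0.594 and 0.712 in Col-0 and 2.43, 2.34 and 2.25 in cnd1-3, with ERF5 the more abundant in each wild-type library and ERF2 in each mutant library. These ratios are taken within a library, so no scaling between libraries enters them. They are of members chosen as lower in cnd1-3, and how many other gene pairs separate the genotypes was not counted. The separation is therefore a description.

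A neighbour that is no member went the other way. ERF107 (AT5G61590, chr5:24764256-24765511), also named DEWAX, a repressor of cuticular wax synthesis and likewise of subgroup IXb, lies 832 bases from ERF104 on the same strand. It was at 32.0, 32.6 and 27.9 FPKM in Col-0 and at 78.4, 43.6 and 45.9 in cnd1-3, higher in 3 of 3 mutant libraries (log2 difference 0.80, SE 0.20, limma adjusted p = 0.0351). ERF107 over ERF104 was 1.76, 1.0 and 1.07 in Col-0 and 6.31, 11.3 and 7.39 in cnd1-3. That ratio also carries the choice of ERF104 as lower in cnd1-3. The call of ERF107 was lost without Col-0 replicate 1, 2 or 3 (limma adjusted p = 0.0755, 0.0888 and 0.0774), with no minimum level (0.071) and without the intensity trend (0.0659).

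**Figure D3:**
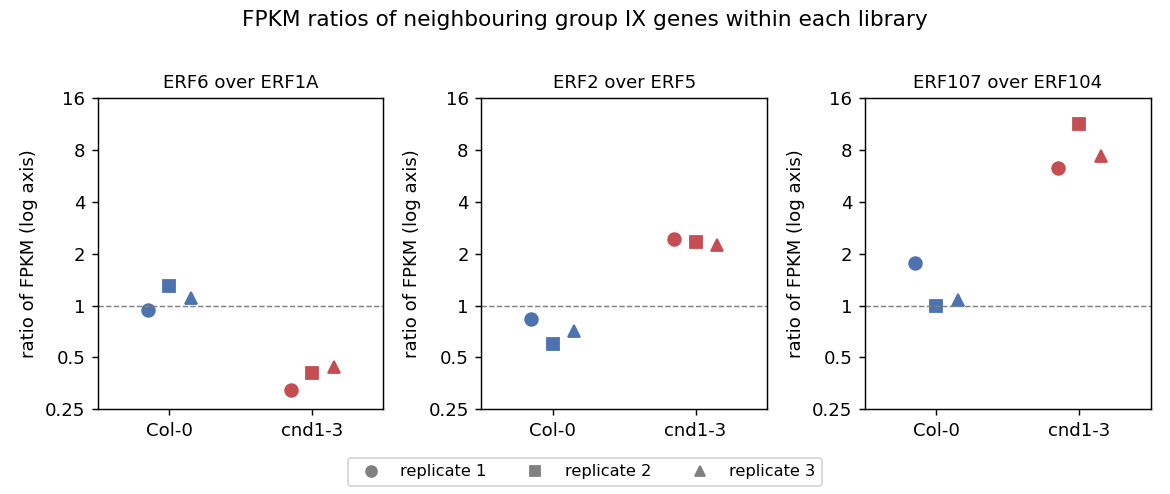
Ratio of FPKM of neighbouring group IX genes within each library, on a log axis, for ERF6 over ERF1A, ERF2 over ERF5 and ERF107 over ERF104, with Col-0 in blue, cnd1-3 in red and marker shapes for the replicates. The genotypes do not overlap in any of the 3 ratios, each of which includes a member chosen as lower in cnd1-3. No share over other gene pairs was taken. ERF107 over ERF104 reaches 11.3 in cnd1-3 replicate 2.

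The remaining 3 members lay below the minimum level. ORA59 (AT1G06160, chr1:1882907-1883992), which integrates jasmonate and ethylene signals and activates the defensin gene PDF1.2, was at 0.121, 0.56 and 0.316 FPKM in Col-0 and 0.248, 0.167 and 0.16 in cnd1-3. That is 28 and 14 recovered reads in all, a 1.69-fold higher read share in Col-0 with a 95% exact binomial interval of 0.859 to 3.47, which covers counting error only. ERF1 (AT3G23240, chr3:8295617-8296604), a direct target of EIN3, had 2 reads in Col-0 and 1 in cnd1-3, too few for any comparison. ERF105 (AT5G51190, chr5:20800473-20801437), a factor of the cold response, was listed at 0 in all 6 libraries. Its only exon is covered over 100% of its length by an exon of AT5G51180 on the opposite strand. Of 338 protein-coding genes whose exons are covered in full by genes of the opposite strand only, 326 (96.4%) were listed at 0 in every library, beside 4988 of 19818 (25.2%) without exon overlap. The 0 of ERF105 is therefore not read as a level, and no comparison is made for it.

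Within a genotype the 6 tested members varied together. In Col-0, replicate 1 was the lowest of the wild-type libraries for 6 of 6, while it was the lowest for 37.3% of all tested genes. Col-0 replicate 2 was the highest for 5 of 6, but also for 50.0% of all tested genes. In cnd1-3, replicate 1 was the highest of the mutant libraries for 6 of 6, beside 27.9% of all tested genes, and replicate 2 was the lowest for 5 of 6, beside 25.8%. With the genotype means removed, the mean of the 6 on the log2 scale was 0.54, -0.50 and -0.03 in cnd1-3 replicates 1, 2 and 3 and -0.49, 0.34 and 0.15 in those of Col-0. Each member correlated with the mean of the other 5 over these 6 deviations at a Pearson r of 0.81 (ERF13) to 0.98 (ERF5), a description over few points that share their libraries. Their SD within a genotype was 0.43 to 0.68 log2 units, beside a median of 0.13 over tested genes, and at least 96.9% of tested genes had a smaller one. What differed between the libraries of a genotype is not given in the labels.

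**Figure D4:**
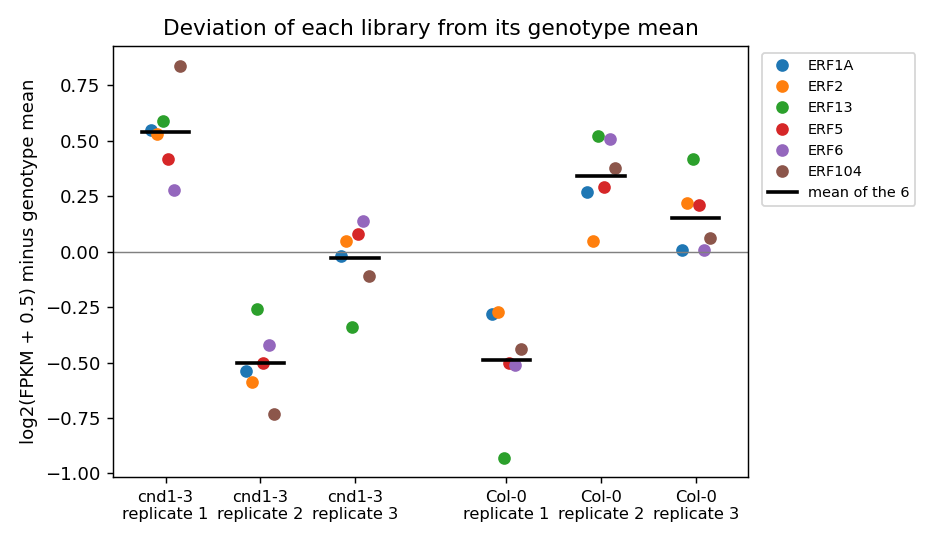
Deviation of log2(FPKM + 0.5) from the genotype mean in each library, with a colour for each of the 6 tested members and a black bar for their mean. All 6 lie below 0 in Col-0 replicate 1 and cnd1-3 replicate 2 and above 0 in cnd1-3 replicate 1.

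The genes whose deviations followed the mean of the 6 most closely over the 6 libraries, among 1478 tested genes with an SD of at least 0.3 within a genotype, were chosen by rank and not by function. AT1G65845, annotated as uncharacterized, had a Pearson r of 0.998, as did TCH3 (AT2G41100), a touch-induced calmodulin-like protein. ATL2, a RING-type ubiquitin ligase gene induced early by elicitors, had 0.994, the zinc finger gene ZAT10 0.989 and the TIR domain gene AT1G72920 0.988. MKK9, a kinase of the MAP kinase list, had 0.987, AT5G45630, annotated as a senescence regulator, 0.985, and AT2G27080, of a family annotated as hydroxyproline-rich glycoproteins, 0.984. An r of at least 0.9 was found for 5.62% of the 1478 genes, whose median was 0.11. The genotype means were removed before this likeness was taken, but it is a likeness to members chosen as lower in cnd1-3. Among the 8, 5 also fell in cnd1-3, beside 163 of the 1478 genes and 7.59% of all tested genes. The share called lower among all genes with an r of at least 0.9 was not taken. The 5 are therefore a description and are not read as independent support. They were AT1G72920 with a log2 difference of -2.57 (limma adjusted p = 0.00156), ZAT10 with -2.54 (0.00302) and AT5G45630 with -2.15 (0.0021). MKK9 with -1.44 (0.00258) and ATL2 with -1.24 (0.00446) were the others. TCH3 (log2 difference -0.87) and AT1G65845 (-0.13) did not pass (adjusted p = 0.073 and 0.742), nor did AT2G27080 with means of 2.44 ± 1.55 FPKM in the mutant and 5.18 ± 2.08 in the wild type (0.124). TCH3 passed when replicate 1 of cnd1-3 (0.03) or of Col-0 (0.0489) was left out and with voom on recovered reads (0.0392), and AT2G27080 without cnd1-3 replicate 1 (0.0417). These 3 genes each overlap another annotated gene.

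The other 8 genes of group IX did not share one direction. Across all tested genes 11.1% were called, 3.5% higher and 7.59% lower, and the counts of this and the following lists are read beside these shares. All of these lists were chosen with earlier results of these data known. Of 3 tested, ERF107 rose, ERF15 fell and ERF106 did not pass, 4 were listed at 0 in every library and TDR1 lay below the minimum level; ERF106 and TDR1 are named here after their values were seen. ERF15 (AT2G31230), an IXc factor of abscisic acid and immune responses, was at 5.92, 5.49 and 6.43 FPKM in Col-0 and 3.3, 3.44 and 3.98 in cnd1-3 (log2 difference -0.66, SE 0.10, limma adjusted p = 0.00573). ERF106 (AT5G07580), the gene most similar to ERF107 by coding sequence, had means of 58.1 ± 3.98 FPKM in the mutant and 52.7 ± 2.85 in the wild type (0.14, adjusted p = 0.271). Within subgroup IXb the tested genes thus ranged from -2.79 for ERF6 to 0.80 for ERF107.

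Of the 8 group VIII factors listed, which carry a repression motif and bind the same GCC box, 5 were tested and 3 lay below the minimum level. Of the 5, 4 fell, 0 rose and 1 did not pass, with a median log2 difference of -0.67. ERF4 fell from 32.2 ± 10.6 to 6.78 ± 1.62 FPKM (-2.13, SE 0.25, limma adjusted p = 0.00161) and ERF11 from 1.8 ± 0.809 to 0.294 ± 0.185 (-1.50, adjusted p = 0.0134). ERF8 and ERF3 fell by 0.67 and 0.54 on the log2 scale (adjusted p = 0.00939 and 0.00299). ERF7, named after its values were seen, had a log2 difference of -0.29 (SE 0.08, limma adjusted p = 0.0536). It passed with voom on recovered reads.

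Few core ethylene signalling genes were called, as were few of all tested genes. Of 13 tested genes for receptors and signalling, 0 rose, 1 fell and 12 did not pass limma's test, with a median log2 difference of -0.11. Over all tested genes 3.5% were called higher and 7.59% lower, so this count is near the general share and is not read as a result about the pathway. EIN3, the factor that activates ERF1, had means of 20.7 ± 0.545 FPKM in the mutant and 22.4 ± 1.82 in the wild type, and EIL1 35.2 ± 2.03 and 33.9 ± 3.1 (limma adjusted p = 0.41 and 0.724), both named after their values were seen. EBF1, an F-box protein gene whose product marks EIN3 for degradation, fell from 17.8 ± 4.16 to 11 ± 0.293 FPKM (-0.64, SE 0.15, adjusted p = 0.0289). It lost its call without any one of cnd1-3 replicates 1, 2 and 3 (0.0789, 0.0716 and 0.0748) or Col-0 replicates 1 and 2 (0.08 and 0.0768), with no minimum level (0.0593) and without the trend (0.054).

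Of 7 tested ethylene synthesis genes 1 rose, 1 fell and 5 did not pass, with a median of -0.09. ACS6, the ACC synthase stabilized by MPK3 and MPK6, was at 14.2, 35.1 and 29.1 FPKM in Col-0 and 13.6, 7.87 and 8.41 in cnd1-3 (log2 difference -1.29, SE 0.32, limma adjusted p = 0.034). Its lowest wild-type and highest mutant values, both in replicate 1, nearly met, and the call was lost without cnd1-3 replicates 2 and 3 (0.0968 and 0.0887), without Col-0 replicates 2 and 3 (0.112 and 0.0769), with no minimum level (0.0719), without the trend (0.0631) and with the replicate number as a block (0.0507). ACS4, an auxin-inducible ACC synthase gene, rose from 0.308 ± 0.114 to 0.851 ± 0.176 FPKM (0.74, SE 0.20, adjusted p = 0.0466), and was called in 0 of the 6 fits with a library removed. It did not pass without cnd1-3 replicate 1 or 2 (0.0822 and 0.12) or Col-0 replicate 1, 2 or 3 (0.1, 0.0613 and 0.0985), nor with a pseudocount of 0.1 (0.0516), and without cnd1-3 replicate 3 or with a minimum of 2 FPKM it lay below the minimum level.

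In the MAP kinase list 1 of 11 tested genes rose, 2 fell and 8 did not pass, with a median log2 difference of -0.13. MKK9, which acts upstream of MPK3 and MPK6, fell from 20.0 ± 3.5 to 7.15 ± 1.84 FPKM (-1.44, SE 0.19, limma adjusted p = 0.00258). AP2C1, a phosphatase that inactivates stress MAP kinases, was at 5.18, 18.5 and 16.8 FPKM in Col-0 and 1.71, 2.29 and 2.08 in cnd1-3 (-2.29, SE 0.39, adjusted p = 0.00871). MKP2, another MAP kinase phosphatase gene, rose from 17.7 ± 1.02 to 23.5 ± 1.31 FPKM (0.40, SE 0.08, adjusted p = 0.0143), a call lost without cnd1-3 replicate 1 or 2 (0.063 and 0.0537). MPK3 and MPK6 did not pass (adjusted p = 0.553 and 0.634, named after their values were seen).

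Of 13 genes reported as targets of group IX factors, 8 lay below the minimum level, among them PDF1.2a, the defensin gene activated by ERF1 and ORA59, at 0 to 0.374 FPKM. Of the 5 tested, 1 fell and 4 did not pass, with a median of -0.53. ZAT10, a zinc finger repressor activated by ERF6 under osmotic stress, fell from 33.3 ± 11.6 to 5.4 ± 2.49 FPKM (log2 difference -2.54, SE 0.34, limma adjusted p = 0.00302). MYB51 and WRKY33, further reported targets of ERF6 named after their values were seen, had log2 differences of -0.78 and -0.46 (adjusted p = 0.0612 and 0.264). The genes MPK3, MPK6, WRKY33 and ERF106 each overlap another annotated gene, so reads on the shared stretches may be split between the genes or belong to either.

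**Figure D5:**
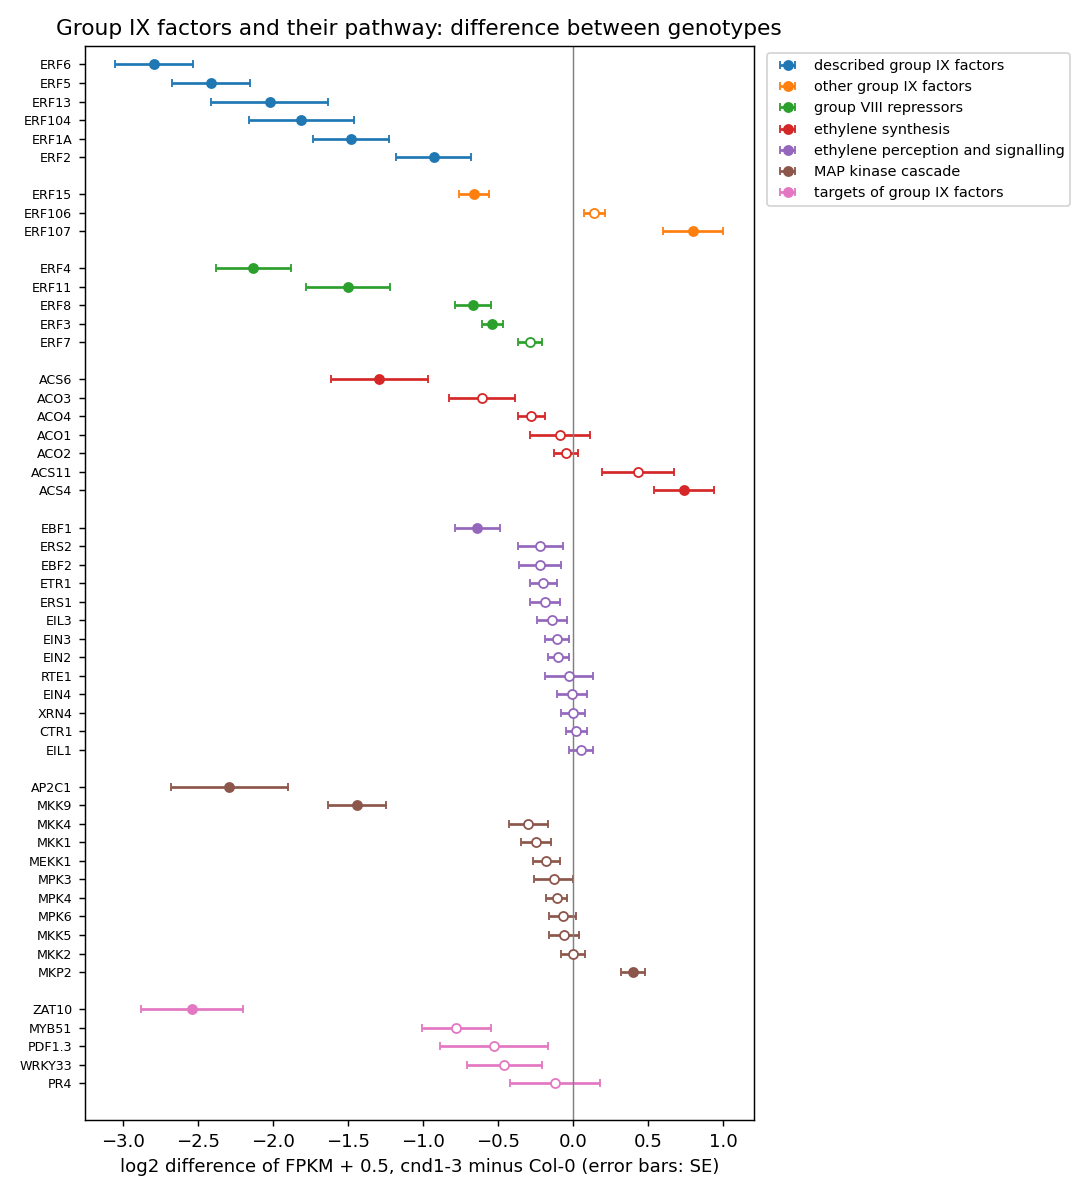
Log2 difference of FPKM plus 0.5, cnd1-3 minus Col-0, with its SE, for the 6 tested members and the tested genes of the 6 pathway lists, filled where limma's adjusted p is below 0.05. The members, which were chosen on this contrast, span -2.79 to -0.93. The receptor and signalling genes lie near 0 apart from EBF1, and ERF107 lies above 0.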

How the data were processed

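The deposited table gives FPKM per gene for the 6 libraries, which the labelled genotype puts in groups of 3. The labels' protocol says that mRNA was isolated with oligo-dT beads, made into libraries with an ABclonal kit and sequenced as read pairs on an MGISEQ-T7. Per the submitters' processing notes, HISAT2, featureCounts, Subread and DESeq2 were named with the TAIR10 build; their versions and settings were not stated there. FPKM times exon length (TAIR10.1 annotation) gave whole reads, within 0.01, for 99.34% to 99.37% of the values above 0, and the depths follow from these reads. Genes were tested with limma 3.58.1 (R 4.3.3), eBayes using an intensity trend, on log2 of FPKM plus 0.5, for 17096 genes with a mean of at least 0.5 FPKM, with Benjamini-Hochberg adjustment over all of them at 0.05. Differences on this scale understate changes of low genes. The procedure was tested on simulated data with independent libraries and the usual spread of genes at each level. These data do not cover the wider and shared spread of the members.

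The 9 members and the 6 pathway lists were chosen with earlier results of these data known. The named genes were the members, up to 4 called genes of each list with the largest difference, and the 8 genes most like the members in their deviations from the genotype means. Others are said to be named after their values were seen. The replicate numbers were not taken as pairs in the main fit. Same-numbered libraries' deviations correlated at 0.0324, 0.157 and 0.263, and 5 of the 6 libraries correlated best with the one of their own number. A fit with the replicate number as a block is therefore given among the alternatives. Motifs, promoters and coding sequences were read from the TAIR10.1 genome with Python 3.11.15 and Biopython 1.88. Alternatives were median-ratio scaling, quantile normalization, pseudocounts of 0.1 and 1, a minimum of 2 FPKM or none, no trend, the replicate block, limma's voom on recovered reads and leaving out each library.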

Additional observations from a re-analysis of the deposited data

How the results depend on the processing

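The median difference of the 6 tested members stayed between -2.27 and -1.67 over 15 alternatives, against -1.91, and each member stayed below 0 in all 15. Median-ratio scaling and quantile normalization moved the median of all tested genes from -0.05 to 0.00 and 0.02. The number of changed genes, 1896 in all (598 higher, 1298 lower), was 906 to 1837 when 1 library was left out, lowest without Col-0 replicate 2. The lower genes numbered 1120 of 2062 after median-ratio scaling and 1004 of 1986 after quantile normalization. With the replicate number as a block 2879 genes were called (1020 higher, 1859 lower), and with voom on recovered reads 2112 were. Under the block the ethylene synthesis list had 3 calls instead of 2, with 1 higher and 2 lower. ACS6 lost its call there, so the lower calls were of genes not called in the main fit. The other lists kept their counts. The numbers were not shown to pair the libraries, and 5 of the 6 libraries correlated best with the one of their own number, a hint from the data and not from the design. These matches come from one set of correlations and are not independent. The mean deviation of the 6 tested members had opposite signs in same-numbered libraries. It was 0.54, -0.5 and -0.03 in cnd1-3 replicates 1, 2 and 3 and -0.49, 0.34 and 0.15 in those of Col-0.

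Counts of the lists changed as follows. The other group IX factors had 1 call instead of 2 with no minimum level and without the intensity trend, and 1 to 2 with a library left out. Ethylene synthesis had 1 call with a pseudocount of 0.1, with no minimum level, with a minimum of 2 FPKM and without the trend, and 0 to 1 with a library left out. Perception and signalling had 0 calls instead of 1 with no minimum level and without the trend, and 0 to 1 with a library left out. The targets had 2 calls instead of 1 with voom. Group VIII had 3 instead of 4 with voom, a fit that did not include ERF4 and ERF8 and in which ERF7 gained a call. The MAP kinase list had 2 instead of 3 without cnd1-3 replicate 1 or 2 and 4 without Col-0 replicate 1. The difference of AT1G65845, which was not called, went from -0.13 to 0.00 under quantile normalization, to 0.05 without cnd1-3 replicate 2 and to 0.00 without Col-0 replicate 2, in a range of -0.31 to 0.05 over the libraries left out. Of 278 other values of named genes under the alternatives, 27 lost a call, 4 gained one and 244 kept their side of the threshold and their direction. Except where the construction left fewer samples or changed the genes tested, the cause was not tested. With 14 to 28 reads for ORA59 and 1 to 2 for ERF1 over a genotype, depth limits any statement on these.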
